A study of Mus musculus with 12 samples.

Results

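The genes described here are 10 C-type lectins of mouse macrophages, taken by symbol from 55401 genes in the deposited tables. They are the CD209 genes Cd209a, Cd209b, Cd209d, Cd209f and Cd209g, the macrophage galactose lectins Clec10a and Mgl2, and the Dectin-2 cluster genes Clec4n, Clec4e and Clec4d. All 10 were found. The series concerns FABP5, a fatty acid binding protein, in myeloid cells during inflammatory pain. The genotypes were FABP5Flox mice (here Flox) and FABP5Flox/LysM-Cre mice, which the submitters call a myeloid-specific conditional knockout (here cKO). Adult mice of each genotype received saline or 1% carrageenan, a seaweed polysaccharide that sets off acute inflammation, into the hind paw. After 4 h the paws were dissociated, CD45+/CD11b+/Ly6G- cells were sorted, and their RNA was read from the 3' end, with a unique molecular identifier on each molecule.

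There were 12 libraries, 3 in each of the 4 groups Flox saline, Flox carrageenan, cKO saline and cKO carrageenan. Every library was a pool of 3 or 4 mice, so each Flox group held 10 mice and each cKO group 12. A pool is named below by the mouse numbers in its title. The floxed Fabp5 allele was present in all groups. No group carried LysM-Cre without it, so effects of Cre, of its insertion site in the lysozyme gene and of Fabp5 deletion cannot be told apart. LysM-Cre acts in macrophages, monocytes and neutrophils, and the sort keeps more than 1 kind of myeloid cell. The sex of the mice is not stated in the labels. Every p-value rests on the spread between 3 pools a group.

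C-type lectins are surface receptors that bind sugars through a calcium-dependent domain. The CD209 proteins are the mouse relatives of human DC-SIGN, bind mannose- and fucose-rich glycans, and are carried by dendritic cells and by tissue macrophages. Clec10a and Mgl2 encode the mouse macrophage galactose-type lectins, which bind terminal galactose and N-acetylgalactosamine, are internalizing receptors, and are widely used as markers of macrophages exposed to interleukin 4 and of dermal dendritic cells. The Dectin-2 cluster works differently. Clec4n (Dectin-2) binds fungal mannans, Clec4e (Mincle) binds mycobacterial glycolipids and a nuclear protein released by dying cells, and Clec4d (MCL) pairs with Mincle. These receptors signal through the Fc receptor gamma chain, the kinase Syk and the adaptor Card9 to inflammatory cytokine genes.

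Reads on genes ranged from 111925 in the Flox saline pool of mice 1-3 to 2987015 in the cKO saline pool of mice 5-8. Flox libraries held 111925 to 994161 and cKO libraries 508407 to 2987015, so depth and genotype cannot be told apart. Fabp5, the targeted gene, had 32.8 to 94.9 normalized counts in the Flox carrageenan pools and 6.01 to 22.3 in the cKO carrageenan pools, without overlap. In saline it had 5.46 to 36.5 and 4.29 to 11.8, which overlapped, on 253 reads in all 12 libraries. The labels do not state which exons loxP flanks, so 3' reads may lie outside the deleted part. Ly6g had 4 reads in all 12 libraries, while Ptprc (CD45) and Itgam (CD11b) were present in each. In the cKO carrageenan pool of mice 9-12, genes of resident macrophages made up 0.781% of reads against 1.45% and 1.64% in the other 2 pools of that group, and monocyte genes 1.02% against 0.643% and 0.264%.

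The 10 genes lie in 3 groups on the genome (GRCm38, GENCODE annotation). The 5 CD209 genes are on chromosome 8, with Cd209b at chr8:3917655-3926844 and Cd209g at chr8:4134098-4137707. Clec10a at chr11:70156197-70170834 and Mgl2 at chr11:70130329-70137550 are neighbours. Clec4n at chr6:123229843-123247021, Clec4d at chr6:123262111-123275265 and Clec4e at chr6:123281789-123289870 stand in a row. None overlaps another annotated gene, and no stretch of 50 bases in the last 500 bases of the Cd209 members, Clec4e or Clec4d transcripts occurs in another annotated gene's transcripts. Of such stretches in Clec10a, 15.6% also occur in Mgl2, so part of the reads could be assigned to either gene. The share was 2.69% for Mgl2 and 1.47% for Clec4n.

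The promoters of Clec4e and Clec4d, which rose, and of Cd209b, Cd209f, Cd209g and Mgl2, which fell, are shown so that members that moved together can be compared. Each runs from 250 bases before to 50 after the RefSeq start, 5' to 3' on the gene's strand (RefSeq, GRCm38.p6), and 8 of the 10 genes had an entry. Capitals mark matches, on either strand, to the motifs named after the sequences.
Clec4e, chr6:123289822-123290121, minus strand: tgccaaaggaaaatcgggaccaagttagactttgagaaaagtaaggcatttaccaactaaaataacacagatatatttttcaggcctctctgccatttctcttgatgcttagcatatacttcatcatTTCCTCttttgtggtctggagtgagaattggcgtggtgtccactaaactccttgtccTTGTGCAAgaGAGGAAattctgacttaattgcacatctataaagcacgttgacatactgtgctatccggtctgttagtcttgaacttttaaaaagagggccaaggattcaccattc
Clec4d, chr6:123261857-123262156, plus strand: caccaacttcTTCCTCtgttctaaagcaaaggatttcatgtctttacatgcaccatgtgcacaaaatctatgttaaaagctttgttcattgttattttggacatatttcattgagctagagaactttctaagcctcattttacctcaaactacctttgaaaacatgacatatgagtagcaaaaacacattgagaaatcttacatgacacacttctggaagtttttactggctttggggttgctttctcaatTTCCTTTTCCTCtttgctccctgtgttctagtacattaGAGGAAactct
Cd209b, chr8:3926792-3927091, minus strand: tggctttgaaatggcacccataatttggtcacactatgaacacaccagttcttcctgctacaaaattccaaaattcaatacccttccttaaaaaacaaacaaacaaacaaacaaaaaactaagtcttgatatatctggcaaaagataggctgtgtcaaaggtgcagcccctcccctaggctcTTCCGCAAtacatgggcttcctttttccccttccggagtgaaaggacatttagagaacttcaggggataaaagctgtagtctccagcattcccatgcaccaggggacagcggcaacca
Cd209f, chr8:4105715-4106014, minus strand: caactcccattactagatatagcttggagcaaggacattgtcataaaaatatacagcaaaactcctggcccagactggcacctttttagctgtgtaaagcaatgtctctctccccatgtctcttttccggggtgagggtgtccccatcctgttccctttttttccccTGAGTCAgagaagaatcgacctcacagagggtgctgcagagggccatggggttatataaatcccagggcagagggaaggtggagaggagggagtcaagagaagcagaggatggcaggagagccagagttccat
Cd209g, chr8:4134486-4134785, plus strand: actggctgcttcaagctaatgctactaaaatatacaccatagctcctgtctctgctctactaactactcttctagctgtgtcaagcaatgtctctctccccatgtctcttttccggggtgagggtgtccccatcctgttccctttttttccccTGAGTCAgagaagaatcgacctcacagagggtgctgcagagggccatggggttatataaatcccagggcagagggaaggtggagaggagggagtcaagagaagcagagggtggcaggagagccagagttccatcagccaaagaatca
Mgl2, chr11:70130107-70130406, plus strand: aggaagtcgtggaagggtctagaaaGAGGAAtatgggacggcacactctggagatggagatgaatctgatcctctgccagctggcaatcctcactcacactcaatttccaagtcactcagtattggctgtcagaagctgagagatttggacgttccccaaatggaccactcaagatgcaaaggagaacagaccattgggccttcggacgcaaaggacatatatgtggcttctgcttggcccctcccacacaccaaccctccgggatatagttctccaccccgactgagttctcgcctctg

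The Cd209f and Cd209g promoters share an unbroken run of 180 identical bases, although the genes lie on opposite strands. No other pair among the 8 promoters shared a run over 17 bases. The AP-1 motif TGANTCA lies within that run and was found in these 2 of the 8 promoters, against 7.81% of 32851 RefSeq promoters of the same length. The C/EBP motif TTGCNNAA was found in 2 members, starting 66 bases before the start of Clec4e and 68 before that of Cd209b, against 10.8% of all promoters. The core PU.1 motif GAGGAA was found in Cd209d, Mgl2, Clec4e and Clec4d, against 28.3%, and a half-site of the interferon element, GAAANNGAA, in Clec4d alone, against 8.56%. In Clec4d that half-site overlaps a PU.1 match. The NF-kB motif GGGNNTTCC (5.82% of all promoters) and the STAT motif TTCNNNGAA (8.30%) did not occur in the 8 windows. These are matches of letters only.

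In Flox paws Clec4e and Clec4d rose after carrageenan, 2 of the 10 members where 4.42% of all tested genes rose. Clec10a and Mgl2 fell, where 2.74% of genes fell, and Cd209b, Cd209f and Cd209g were also called lower. Cd209a, Cd209d and Clec4n did not pass the test there. Cd209b, Cd209f and Cd209g had no Flox carrageenan value of 5 or more, the minimum for testing. They entered through their saline and cKO pools alone, so their falls are not set against the 2.74%. In cKO paws 1 member rose, Clec4e, where 2.10% of genes did, and 3 fell, Cd209f, Cd209g and Clec10a, where 0.547% of genes did; the other 6 did not pass. With a replicate block by mouse numbers the cKO calls were 3: Cd209f (adjusted p = 0.0579) and Cd209g (0.0871) were lost and Clec4d (0.0227) passed. Values in the carrageenan comparisons are normalized counts put on 1 scale for both treatments, and tests are limma on log2(value + 1) with Benjamini-Hochberg adjustment over 10240 genes. These are amounts per sample of sorted cells, in which fewer cells of a type and less RNA per cell cannot be told apart.

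The members' median log2 fold change was -1.20 in Flox, where that of all genes tested was 0.10, and -0.91 in cKO, where that of all genes was -0.07. In Flox, Clec4n, Clec4e and Clec4d were higher after carrageenan without overlap, and Cd209d, Clec10a and Mgl2 lower. Over all tested genes 23.0% did not overlap in either direction. Cd209b, Cd209f and Cd209g were also lower without overlap. They are not set against that share, because they entered the test through saline and cKO pools alone. The Flox median above includes them. In cKO 8 of 10 members did not overlap, against 29.6% of genes. Without the shallowest library (Flox saline, mice 1-3) and the cKO carrageenan pool of mice 9-12, 7 members were called in Flox and 6 in cKO. On the reads recovered from the tables, edgeR and DESeq2 each called 8 members in cKO, adding Cd209a and Clec4d as higher and Cd209b and Mgl2 as lower, where they called 8.02% and 8.11% of genes.

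Clec4e, the Mincle receptor, had the most reads of the 10 genes after carrageenan. Its level in the Flox saline pools of mice 1-3, 4-7 and 8-10 was 139, 190 and 357 normalized counts, and in the Flox carrageenan pools 977, 1360 and 1230. The cKO saline pools of mice 1-4, 5-8 and 9-12 had 256, 552 and 264, and the cKO carrageenan pools 1673, 1545 and 1387. All 6 carrageenan pools lay above all 6 saline pools. The mean went from 229 ± 114 to 1189 ± 195 in Flox and from 357 ± 168 to 1535 ± 144 in cKO (SD, n = 3). The log2 fold change was 2.47 ± 0.35 (SE) in Flox (limma, adjusted p = 0.00122) and 2.19 ± 0.35 in cKO (adjusted p = 0.00364), and both calls held when any of the 12 libraries was left out.

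Clec4d, its partner MCL, moved the same way with a smaller difference. The Flox saline pools had 99.9, 86.8 and 188 normalized counts and the Flox carrageenan pools 307, 248 and 369. In cKO the saline pools had 106, 173 and 131 and the carrageenan pools 234, 343 and 412. The groups did not overlap in either genotype. Its log2 fold change was 1.36 ± 0.32 (SE) in Flox (limma, adjusted p = 0.0195) and 1.25 ± 0.32 in cKO, where it missed the threshold (adjusted p = 0.0529). In cKO the fit with a replicate block gave an adjusted p of 0.0227. The Flox call was lost without the Flox saline pool of mice 4-7 (adjusted p = 0.0740) or the Flox carrageenan pools of mice 1-3 (0.0622) or 8-10 (0.0696). It was also lost without a filter on low values (0.0550) and at the margin with the Flox libraries alone.

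Clec4n, Dectin-2 itself, had 33.3, 120 and 126 normalized counts in the Flox saline pools and 210, 180 and 180 in the Flox carrageenan pools. The low value is the shallowest library, where it rests on 6 reads. In cKO the saline pools had 106, 161 and 133 and the carrageenan pools 148, 215 and 227, which overlapped. Its log2 fold changes were 1.24 ± 0.41 (SE) in Flox (limma, adjusted p = 0.0807) and 0.55 ± 0.41 in cKO (adjusted p = 0.825). Neither passed. Without the Flox saline pool of mice 1-3 the Flox value came to 0.62, also not called, and without that of mice 8-10 it passed (adjusted p = 0.0315).

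**Figure D1:**
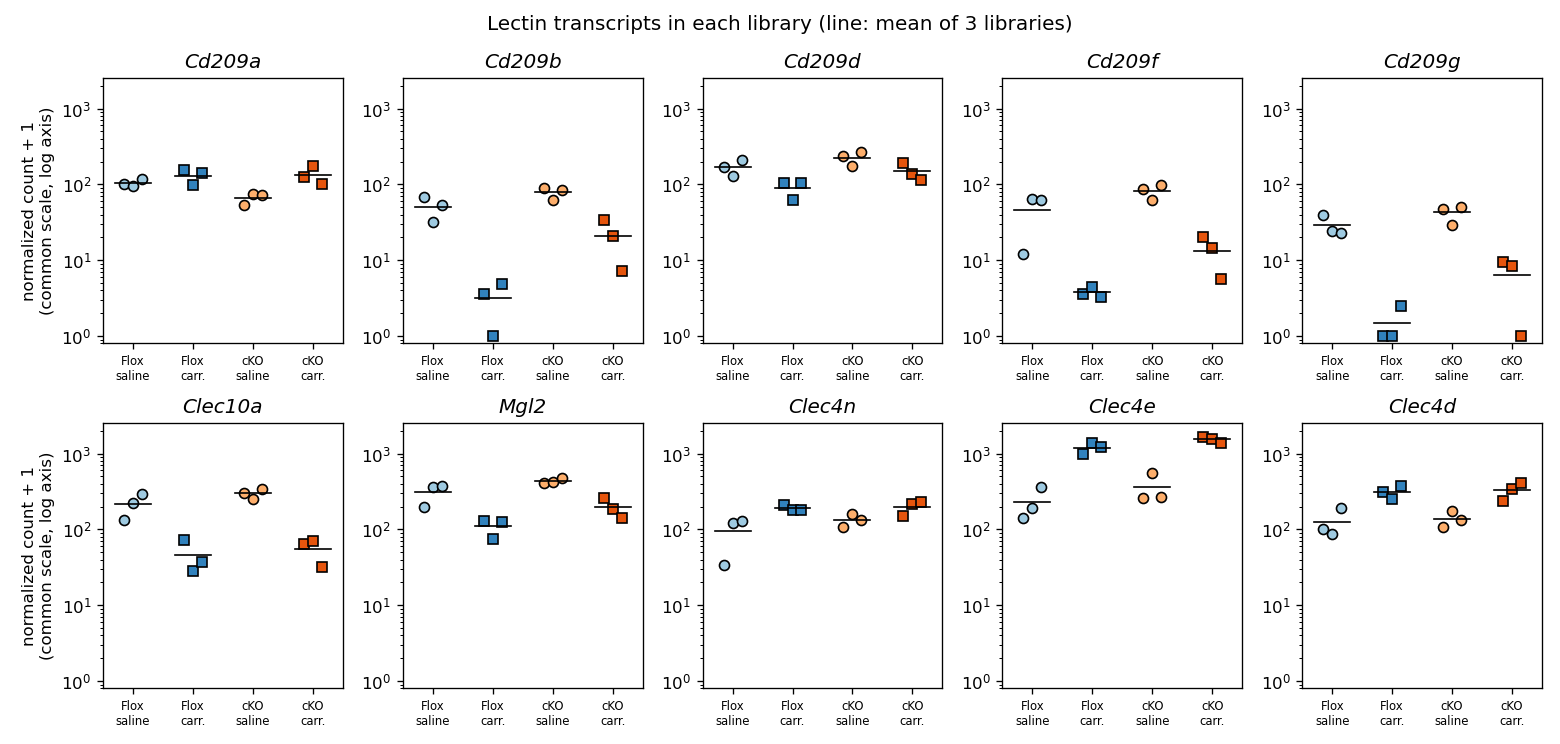
Each panel plots 1 lectin gene, with the normalized count + 1 on a logarithmic axis and the 4 groups along the bottom; points are single libraries and the line is the mean of 3. Clec4e is at 977 or more in all carrageenan libraries, while Cd209b, Cd209f and Cd209g come close to 0 in Flox carrageenan.

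Cd209b, Cd209f and Cd209g fell to 6 reads or fewer each over the 3 Flox libraries after carrageenan. Cd209b encodes a receptor of splenic marginal zone and tissue macrophages that binds bacterial polysaccharides. It had 66.6, 30.5 and 51.8 normalized counts in the Flox saline pools and 2.62, 0 and 3.80 in the Flox carrageenan pools, the latter from 1, 0 and 5 reads. In cKO it had 89.8, 61.2 and 84.0 in saline and 32.5, 20.2 and 6.18 after carrageenan. Treatments did not overlap in either genotype, and the Flox carrageenan pools all lay below the lowest cKO carrageenan pool.

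Cd209f had 11.1, 63.3 and 61.5 normalized counts in the Flox saline pools and 2.62, 3.40 and 2.28 in the Flox carrageenan pools. The cKO saline pools had 86.4, 60.6 and 98.2 and the cKO carrageenan pools 19.1, 13.3 and 4.63. Cd209g, which shares 180 promoter bases with Cd209f, had 38.8, 23.4 and 21.6 in Flox saline and 0, 0 and 1.52 in Flox carrageenan. In cKO it had 46.9, 28.5 and 49.7 in saline and 8.55, 7.41 and 0 after carrageenan. For both genes the treatments did not overlap in either genotype, and within cKO carrageenan the pool of mice 9-12 was lowest for Cd209b, Cd209f and Cd209g alike. In Flox the nearest Cd209f values, 11.1 in saline and 3.40 after carrageenan, rest on 2 reads and 1 read.

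At such counts the depth limits the precision. In the Flox carrageenan pools 3 reads correspond to 7.86, 10.2 and 2.28 normalized counts, so most values of these 3 genes there lie under that level. Over the 3 Flox pools Cd209b had 73 reads in saline and 6 after carrageenan, a depth-adjusted ratio of 0.0633 with an exact 95% interval of 0.0225 to 0.145. The ratio was 0.0448 (0.0142 to 0.109) for Cd209f, from 86 and 5 reads, and 0.0416 (0.00486 to 0.161) for Cd209g, from 37 and 2 reads. In cKO the ratios were 0.318 (0.267 to 0.378), 0.195 (0.157 to 0.240) and 0.184 (0.134 to 0.249). These intervals cover counting error only and not the spread between pools.

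In Flox the fitted log2 fold change was -4.22 ± 0.67 (SE) for Cd209b (limma, adjusted p = 0.00233), -3.29 ± 0.66 for Cd209f (0.00864) and -4.36 ± 0.82 for Cd209g (0.00614). Every Flox carrageenan value of the 3 genes lay under the minimum of 5, so they entered this test through saline and cKO pools alone. Their adjusted p-values carry that limit. All 3 calls held when any of the 12 libraries was left out. Without the Flox saline pool of mice 1-3 Cd209f came to -4.08, and without the Flox carrageenan pool of mice 4-7 Cd209b came to -3.53. The call of Cd209f was lost with the Flox libraries alone (adjusted p = 0.0837). These fitted sizes depend on the amount added before the logarithm: with 5 in place of 1, Cd209b came to -2.92, Cd209f to -2.43 and Cd209g to -2.56. In cKO the changes were -2.19 ± 0.67 for Cd209b (adjusted p = 0.124), -2.79 ± 0.66 for Cd209f (0.0371) and -3.27 ± 0.82 for Cd209g (0.0492). The cKO calls were not firm. Without the cKO carrageenan pool of mice 9-12 Cd209g came to -2.21 and Cd209b to -1.56. Cd209f kept its call in 5 and Cd209g in 2 of 12 fits that each left out 1 library. Both were lost without the Flox carrageenan pools of mice 1-3 or 8-10, without any cKO saline pool, and without the cKO carrageenan pools of mice 5-8 or 9-12. Cd209g was also lost without the Flox saline pools of mice 4-7 or 8-10 and the Flox carrageenan pool of mice 4-7.

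The galactose lectins fell from higher levels, so their values rest on more reads. Clec10a had 133, 220 and 288 normalized counts in the Flox saline pools and 70.7, 27.2 and 36.5 in the Flox carrageenan pools. The cKO saline pools had 304, 253 and 337 and the cKO carrageenan pools 63.9, 70.0 and 30.9. All 6 carrageenan pools lay below all 6 saline pools. On the log2 scale the change was -2.27 ± 0.40 (SE) in Flox (limma, adjusted p = 0.00396) and -2.49 ± 0.40 in cKO (adjusted p = 0.00364), and both calls held when any library was left out.

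Mgl2 had 194, 361 and 377 normalized counts in the Flox saline pools and 128, 74.8 and 123 in the Flox carrageenan pools. In cKO it had 408, 418 and 473 in saline and 258, 182 and 141 after carrageenan. Treatments did not overlap within a genotype. On the log2 scale it changed by -1.49 ± 0.31 (SE) in Flox (limma, adjusted p = 0.0108), lost without the Flox carrageenan pool of mice 4-7 (adjusted p = 0.0600), and -1.20 ± 0.31 in cKO (adjusted p = 0.0580). The cKO value passed without the Flox saline pool of mice 1-3 (adjusted p = 0.0123) or the cKO carrageenan pool of mice 1-4 (0.0445).

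The CD209 genes did not move as a unit. Cd209a, the CD209 gene known from dendritic cells and monocyte-derived cells, did not share the fall of the 3 members above. It had 99.9, 93.8 and 115 normalized counts in Flox saline and 152, 98.6 and 139 in Flox carrageenan, which overlapped. In cKO it had 52.4, 74.1 and 71.0 in saline and 124, 175 and 98.8 after carrageenan, without overlap. The log2 fold change was 0.31 ± 0.28 (SE) in Flox (limma, adjusted p = 0.529) and 0.98 ± 0.28 in cKO (adjusted p = 0.0957). Without the Flox saline pool of mice 1-3, which enters through the shared estimate of the spread, the cKO value passed (adjusted p = 0.0496).

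Cd209d, the family member next to Cd209b on the chromosome, had 166, 129 and 206 normalized counts in Flox saline and 105, 61.2 and 102 in Flox carrageenan, without overlap. In cKO it had 235, 175 and 263 in saline and 192, 137 and 114 after carrageenan, which overlapped. Its log2 fold changes of -0.91 ± 0.30 (SE) in Flox (limma, adjusted p = 0.0795) and -0.61 ± 0.30 in cKO (adjusted p = 0.499) did not pass. Within each library the ratio of Cd209a to Cd209d reads was 0.560 to 0.727 in Flox saline and 1.37 to 1.61 after carrageenan. It was 0.223 to 0.424 in cKO saline and 0.647 to 1.28 after carrageenan, so the balance of these 2 genes differed between treatments without overlap in each genotype.

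**Figure D2:**
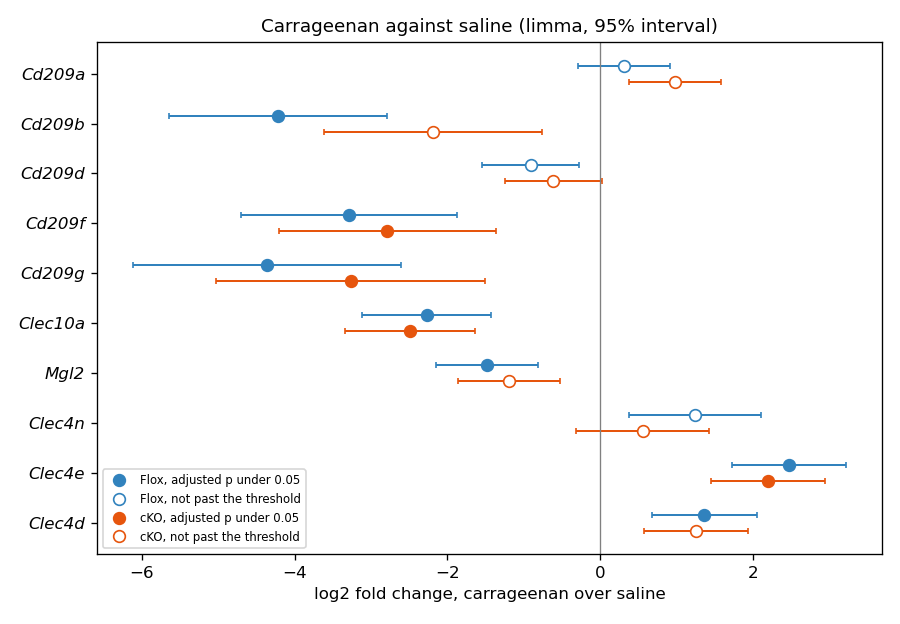
Each row is 1 lectin gene and the horizontal axis gives the log2 fold change of carrageenan over saline, with points for Flox and cKO, bars for the 95% interval of the limma fit, and filled points for adjusted p under 0.05. Clec4e lies to the right of 0 in both genotypes and Cd209f, Cd209g and Clec10a to the left.

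The mean of the Flox and cKO effects was examined after the data had been seen. It called 9 of the 10 members, all but Clec4n (limma, adjusted p = 0.0577), 3 of them higher and 6 lower, where 6.77% of all tested genes rose and 4.83% fell. The 6 include Cd209b, Cd209f and Cd209g, which had no Flox carrageenan value of 5 or more, and that count carries this limit. The averaged value of Clec4e was 2.33 ± 0.25 (SE, adjusted p = 4.01e-05). Cd209a came to 0.65 ± 0.20 (adjusted p = 0.0495) and Cd209d to -0.76 ± 0.21 (adjusted p = 0.0280). Cd209a kept its call in 3 and Cd209d in 6 of 12 fits that left out 1 library.

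The balance of the families can be read within each library, where no scaling between libraries enters. It is a share of 1 total, so more Clec4e reads alone lower the share of the CD209 and galactose lectins. After carrageenan Clec4e had 2391 reads in Flox, against 370 for Clec4n and 675 for Clec4d. In cKO these were 11003, 1307 and 2109. The Dectin-2 cluster took 27.7 to 37.4% of the 10 lectins' reads in Flox saline, 76.4 to 87.1% after carrageenan in Flox, 27.7 to 45.3% in cKO saline and 74.7 to 83.7% after carrageenan in cKO. Clec4e had 0.862 to 1.24 reads for each Clec10a read in Flox saline and 13.8 to 50 in Flox carrageenan. In cKO the ratio was 0.782 to 2.18 in saline and 22.1 to 44.9 after carrageenan. Every carrageenan library lay far above every saline library in both measures, and the genotypes overlapped within each treatment.

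**Figure D3:**
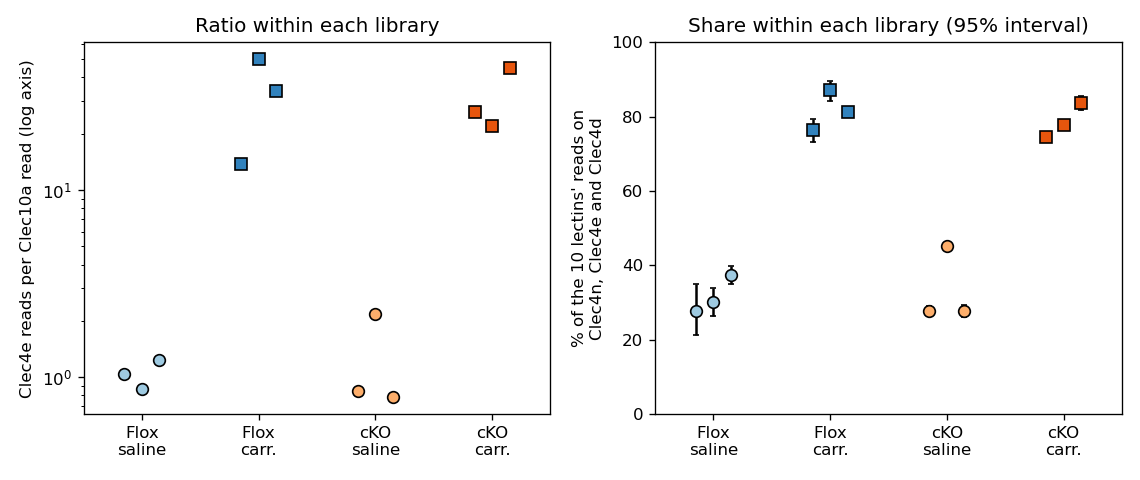
The left panel plots Clec4e reads per Clec10a read on a logarithmic axis and the right panel the percentage of the 10 lectins' reads that fell on Clec4n, Clec4e and Clec4d, with exact 95% binomial intervals; each point is 1 library. Shares of 74.7% and above are found in the 6 carrageenan libraries and shares of 45.3% and below in the 6 saline libraries.

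Members of a family also shifted against each other. Clec10a had 0.610 to 0.763 reads for each Mgl2 read in Flox saline and 0.296 to 0.551 in Flox carrageenan, and 0.604 to 0.746 and 0.220 to 0.384 in cKO. Clec4e had 1.39 to 2.19 reads for each Clec4d read in Flox saline and 3.19 to 5.48 in Flox carrageenan, and 2.01 to 3.19 and 3.36 to 7.14 in cKO. Neither ratio overlapped between treatments within a genotype. All 10 lectins together made up 0.158 to 0.261% of reads in Flox saline and 0.266 to 0.289% in Flox carrageenan, and 0.257 to 0.281% and 0.308 to 0.355% in cKO.

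Markers of cell types moved with these changes. The 16 genes of resident macrophages, such as Folr2, Lyve1 and Cd163, made up 2.13 to 2.72% of reads in Flox saline and 0.595 to 0.763% in Flox carrageenan, and 2.86 to 3.45% and 0.781 to 1.64% in cKO. Of these genes 12 fell in Flox and 6 in cKO, where 2.74% and 0.547% of all tested genes fell. The 8 monocyte genes, such as Ly6c2 and Plac8, went from 0.0840 to 0.196% up to 0.704 to 0.972% in Flox and from 0.0644 to 0.123% up to 0.264 to 1.02% in cKO, with 7 and 6 of the 8 called higher. Of all tested genes 4.42% were called higher in Flox and 2.10% in cKO. Neutrophil genes, with Ngp and Camp at 0 reads, reached 0.0531 to 0.0967% in the Flox and 0.0183 to 0.0897% in the cKO carrageenan pools. In saline they made up at most 0.0111% of reads. Only 2 of these 10 genes were high enough to be tested in the saline libraries alone, so no count of calls is given. Genes of fibroblasts made up 0.00625 to 0.0818% of reads in Flox saline and 0.0930 to 0.160% in Flox carrageenan, and 0.0389 to 0.0950% and 0.0878 to 0.130% in cKO. Of markers of other cells, Col1a1 and Dcn (2 of 6 fibroblast genes) rose in Flox. Limma also called Pecam1 and Kdr (2 of 3 tested endothelial genes) higher in Flox, while edgeR and DESeq2 called 0. Pecam1 and Kdr had 4 and 1 reads in Flox saline and 30 and 17 in Flox carrageenan. None of these 4 genes was called in cKO. Gzma, a granzyme gene of T and NK cells, had 35 reads in Flox carrageenan. It had 1 in Flox saline, 0 in cKO saline and 4 in cKO carrageenan, so no call is read from it. Of the 10 dendritic cell genes 8 were tested and none was called in either genotype by limma. In each, 1 had an unadjusted p under 0.05; edgeR and DESeq2 called 0 in Flox and 2 in cKO. The part of each cell type in the lectins' changes was not tested.

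Between the genotypes limma called no lectin and no other gene (0% in saline and 0% after carrageenan). Over all genes edgeR called 0% in both treatments, while DESeq2 called 0.256% in saline and 0.480% after carrageenan, no lectin among them. After carrageenan DESeq2 gave no adjusted p for Cd209b, Cd209f, Cd209g and Clec10a, and edgeR did not test Cd209b, Cd209f and Cd209g. For these genes the lack of a call there is not a negative result. After carrageenan Cd209d, Mgl2 and Clec4e had higher values in every cKO pool than in any Flox pool, where 15.1% of tested genes did not overlap in either direction. Cd209b and Cd209f were also higher in every cKO pool. They are not set against that share, because Cd209b entered the test through its cKO pools alone and Cd209f was not tested. In saline Mgl2 was higher and Cd209a lower in every cKO pool, where 15.6% of genes did not overlap. These comparisons used the normalized counts as deposited, within each treatment.

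After carrageenan Cd209b had 2.54, 0 and 3.64 normalized counts in the Flox pools and 31.7, 19.4 and 5.95 in the cKO pools, from 1, 0 and 5 reads against 95, 68 and 4. The groups did not overlap, but the nearest values, 3.64 and 5.95, rest on 5 and 4 reads. Every Flox pool lay under the minimum of 5, so Cd209b entered the limma test only through the cKO pools, and no test is given for it here. Over the 3 pools the cKO to Flox ratio of reads was 7.98 with an exact 95% counting interval of 3.59 to 22.1. Cd209f, with 5 reads in Flox and 104 in cKO, had a ratio of 5.96 (2.48 to 18.8) and did not overlap, though its nearest values rest on 3 reads in cKO and 1 in Flox. Cd209g, with 2 and 50 reads, had 7.17 (1.88 to 60.8) and overlapped. Cd209f and Cd209g were too low in this treatment to enter the limma test.

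Mgl2 had 124, 72.0 and 118 normalized counts in the Flox carrageenan pools and 252, 176 and 135 in the cKO carrageenan pools, without overlap. The log2 fold change was 0.83 ± 0.31 (SE), 95% interval 0.14 to 1.52 (limma, adjusted p = 0.497). Cd209d, at 101, 58.9 and 97.7 in Flox and 187, 132 and 110 in cKO, also did not overlap, with 0.73 ± 0.31 and an interval of 0.05 to 1.41 (adjusted p = 0.497). Clec4e had 946, 1309 and 1179 in Flox and 1633, 1488 and 1336 in cKO, with 0.38 ± 0.23 and an interval of -0.12 to 0.89 (adjusted p = 0.541). The remaining members overlapped. Their intervals were -0.62 to 0.67 for Cd209a, -0.64 to 1.29 for Clec10a, -0.50 to 0.58 for Clec4n and -0.51 to 0.68 for Clec4d.

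In saline Cd209a had 98.3, 97.2 and 122 normalized counts in the Flox pools and 54.5, 77.9 and 74.6 in the cKO pools, without overlap. Its log2 fold change was -0.62 ± 0.27 (SE), 95% interval -1.23 to -0.0028 (limma, adjusted p = 0.683). Mgl2 was the only other member without overlap, at 191, 374 and 398 in Flox and 424, 440 and 497 in cKO, with 0.57 ± 0.32 and an interval of -0.16 to 1.29 (adjusted p = 0.683). The 8 others overlapped between genotypes. Among them Clec4e had an interval of -0.31 to 1.69, Clec10a of -0.18 to 1.32 and Cd209b of -0.07 to 1.53.

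**Figure D4:**
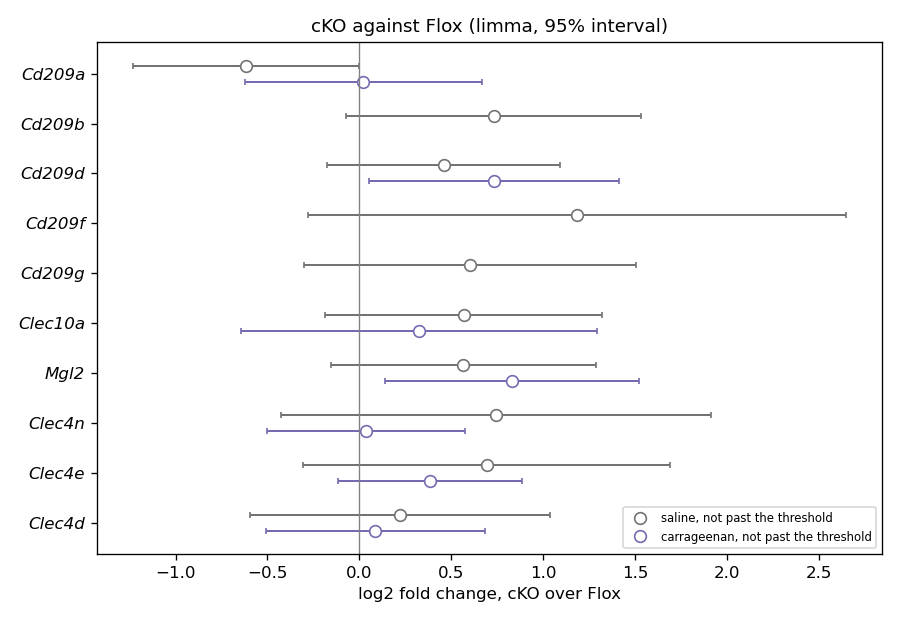
Each row is 1 lectin gene and the horizontal axis gives log2 of the cKO to Flox ratio in saline and in carrageenan, with 95% intervals of the limma fit; open points did not pass the threshold. Cd209b, Cd209f and Cd209g have no carrageenan point because all 3 Flox pools lay under the minimum of 5, and no point of the other members passed.

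In saline all 10 members were among the 9371 genes tested, and after carrageenan 8 were among 9151, Cd209b through its cKO pools alone. At an unadjusted p under 0.05 there was 1 member in saline, Cd209a, and after carrageenan there were Cd209d and Mgl2 among the 7 besides Cd209b. The share of all genes at that unadjusted level is not given, so no enrichment is read from these counts. Groups did not overlap for 2 of 10 members in saline, against 15.6% of genes, and for 3 of those 7 after carrageenan, against 15.1%. The members' median in saline was 0.58, where that of all genes was 0.25. In the authors' deposited table for carrageenan Mgl2 had a log2 fold change of 0.72 with an adjusted p of 0.380. Cd209b, Cd209f and Cd209g had no adjusted p there.

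Whether the genotype difference itself differed between treatments was tested as an interaction. No member passed, and 0% of 10243 genes did. No member had an unadjusted p under 0.05, and edgeR and DESeq2 called none and 0% of genes. For Cd209b the value was 1.98 ± 0.94 (SE) on the log2 scale, 95% interval -0.02 to 3.99 (limma, adjusted p = 0.967). That value includes the Flox carrageenan pools, where every Cd209b value lay under the minimum of 5. The interval was -1.40 to 0.79 for Clec4e and -1.47 to 0.98 for Clec10a.

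Averaged over treatments, a comparison added after the data had been seen, limma called no member and 0.00976% of genes, with 4 members at an unadjusted p under 0.05. The share of all genes at that unadjusted level is not given, so no enrichment is read from the 4. Cd209b came to 1.72 ± 0.47 (SE, limma, adjusted p = 0.194). It was the 1 member called by edgeR (adjusted p = 0.0492), which called 0.539% of genes, and by DESeq2 (adjusted p = 0.0165), which called 1.92%. These Cd209b results include the Flox carrageenan pools, where every value lay under the minimum of 5 and no separate genotype test is given. Without the cKO carrageenan pool of mice 9-12 limma called Cd209b as well (adjusted p = 0.0339); that pool holds its lowest cKO value, so leaving it out raises the difference by construction. Of the resident macrophage genes 13 of 16 had a positive cKO to Flox value in each treatment, with a median of 0.40 in saline, where that of all genes was 0.25, and 0.97 after carrageenan, where that of all genes was 0.09. All 8 monocyte genes had a negative value after carrageenan, with a median of -0.80, where that of all genes was 0.09. In saline 3 of the 8 had a positive value, and their median was -0.35, where that of all genes was 0.25. The Langerhans cell genes Cd207 and Epcam made up 0.0160 to 0.0724% of reads in Flox saline and 0.00454 to 0.0148% in cKO saline, without overlap. The keratinocyte genes Krt5 and Krt14 made up 0.0205 to 0.0356% and 0.0455 to 0.0835% there, also without overlap. Their part in the result was not tested.

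The rest of the lectin pathway was read from lists. Of 27 other C-type lectins 26 were in the tables and 16 could be tested. In Flox, Clec7a (Dectin-1, the receptor for fungal beta-glucan) rose by 1.58 ± 0.44 (SE, log2; limma, adjusted p = 0.0447). Mrc1 (the mannose receptor) fell by 1.47 ± 0.32 (adjusted p = 0.0120) and Colec12 (a scavenger receptor with a collectin domain) by 2.58 ± 0.52 (adjusted p = 0.00908). The other 13 did not pass. In Flox 4.42% of all tested genes rose and 2.74% fell. In cKO limma called none of 16, with 7 at an unadjusted p under 0.05, while edgeR called 4 and DESeq2 5. Over all genes edgeR called 8.02% and DESeq2 8.11% there, and the share at that unadjusted level is not given. The median of the list was -0.54 in Flox and -0.28 in cKO. Of the other CD209 genes, Cd209e had a Flox log2 fold change of -2.51 (limma, adjusted p = 0.0516) and Cd209c of 1.90 (0.25). In cKO these were -0.33 (0.997) and 0.80 (0.965).

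Of 13 tested adaptors and signaling genes 1 rose and 1 fell in each genotype, where 4.42% and 2.74% of all genes did in Flox and 2.10% and 0.547% in cKO. Card9 itself had 42 reads over all libraries and was too low to test. Malt1, a protease downstream of Card9, rose by 1.58 ± 0.31 (SE, log2) in Flox (limma, adjusted p = 0.00718) and 1.99 ± 0.31 in cKO (adjusted p = 0.00327). Inpp5d (SHIP-1, an inositol phosphatase) fell by 0.96 ± 0.25 in Flox (adjusted p = 0.0337) and 1.16 ± 0.25 in cKO (adjusted p = 0.0244). The Fc receptor gamma chain gene Fcer1g had a mean of 963 ± 186 normalized counts in Flox saline and 1750 ± 320 in Flox carrageenan (SD, n = 3). Its log2 value was 0.86 in Flox (limma, adjusted p = 0.0503) and 0.47 in cKO (0.578). That of Syk was 0.98 in Flox (0.0544) and 0.72 in cKO (0.308), so neither gene passed in either genotype. In the mean of the Flox and cKO effects, examined after the data had been seen, both passed. The values were 0.67 for Fcer1g (limma, adjusted p = 0.0221) and 0.85 for Syk (0.0131). Of the 13 genes 3 rose and 1 fell there, where 6.77% and 4.83% of all tested genes did.

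Cytokine and enzyme genes that Card9 signaling can induce were read beside the Dectin-2 cluster. Of 9 tested, 4 rose in Flox (Il1b, Il6, Csf3 and Ptgs2) and 3 in cKO (Il1b, Il6 and Ptgs2), and none fell. Of all tested genes 4.42% rose and 2.74% fell in Flox, and 2.10% rose and 0.547% fell in cKO. Il6 went from 15.6 ± 3.43 to 117 ± 11.5 normalized counts in Flox and from 22.0 ± 5.01 to 112 ± 27.4 in cKO (SD, n = 3). Ptgs2, which encodes cyclooxygenase 2, went from 49.6 ± 42.0 to 420 ± 26.7 and from 37.2 ± 10.2 to 364 ± 131. The median of the 9 was 1.53 in Flox and 0.91 in cKO.

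The list of the interleukin 4 and STAT6 axis, in which Clec10a and Mgl2 are commonly grouped, moved in both directions. Of its 15 genes 5 rose and 2 fell in Flox, where 4.42% and 2.74% of all tested genes did. In cKO 3 rose and 1 fell, where 2.10% and 0.547% of all tested genes did. Chil3 (a chitinase-like protein) went from 35.2 ± 19.8 to 348 ± 19.7 normalized counts in Flox, and Il4ra, the receptor chain, from 218 ± 114 to 513 ± 110 (SD, n = 3). Retnla, a secreted marker of alternative activation, went the other way, from 389 ± 234 to 93.8 ± 42.4 in Flox and from 497 ± 226 to 117 ± 39.9 in cKO. The median of the list was 1.29 in Flox and 0.54 in cKO.

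The genes whose pattern over the 12 libraries was most like each family were sought among 5614 genes with a mean of at least 20 normalized counts. For the mean of the CD209 and galactose lectins, each gene standardized, these were Folr2 (Pearson r = 0.979), Plekhg5 (0.973) and Kcnab2 (0.967). Folr2, a folate receptor of resident macrophages, had 314 ± 39.2 normalized counts in Flox saline, 66.6 ± 28.3 in Flox carrageenan, 408 ± 62.6 in cKO saline and 172 ± 83.8 in cKO carrageenan (SD, n = 3). For the Dectin-2 cluster they were Pdpn (0.972), Cebpb (0.971) and Cd274 (0.971). Cebpb, a transcription factor gene, went from 676 ± 347 to 2045 ± 181 in Flox and from 843 ± 275 to 1990 ± 520 in cKO. These correlations are descriptions over 12 libraries that share a treatment contrast.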

How the data were processed

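CD45+/CD11b+/Ly6G- paw cells gave 12 libraries (Lexogen LUTHOR 3' kit, paired-end NovaSeq), per the labels. The submitters' processing notes name cutadapt, STAR and GRCm38; neither versions nor the read counter and its annotation are stated there. The deposited count tables hold a signal in normalized counts, with saline and carrageenan in separate tables. Each value was a whole multiple of the value of 1 read: with a tolerance of 0.001, 100% of low values gave whole reads. The authors' other tables give, per the file headers, log2 fold changes of cKO over Flox, a score (the test statistic), p-values and adjusted p-values; no header says how those fold changes were made.

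Entries that are not genes (121, holding 0.170 to 2.23% of reads) were left out, and 55141 of 55401 gene IDs matched a symbol. Treatments were put on 1 scale by the median ratio over 6501 genes read in every library. Tests used limma 3.58.1 (trend) in R 4.3.3 on log2(value + 1), for genes of at least 5 in at least 3 libraries, with Benjamini-Hochberg adjustment and a threshold of 0.05. Carrageenan comparisons, their mean and the interaction used all 12 libraries. Genotype comparisons used the 6 libraries of 1 table. The reads were also tested with edgeR 4.0.16 and DESeq2 1.42.0. Scripts were tested on simulated data. Every gene named among the members was named by membership; other genes were named where called in a list, as the next of the family or receptor chain, or as the 3 most alike. Cd209c, Cd209e, Card9, Fcer1g, Syk and the pair of Cd209f and Cd209g promoters were named after their values were seen. Members and lists were chosen with earlier results of these data known.

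Pools of the same mouse numbers deviated together in cKO (correlations 0.200, 0.335 and 0.433 over genes) and not in Flox (0.009, -0.018 and 0.109). The main fits did not pair pools, and the replicate block by mouse numbers was run as an alternative. One cKO pair of different numbers (saline 5-8 with carrageenan 1-4) reached 0.236, above the lowest matched value, and the 5 others ran from -0.395 to 0.030; the labels do not say that a number marks the same mice.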

Additional observations from a re-analysis of the deposited data

How the results depend on the processing

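In Flox 7 members were called for carrageenan, 6 to 8 when 1 library was left out, and 7 by edgeR, by DESeq2 and with the replicate block. The 7 of the main fit include Cd209b, Cd209f and Cd209g, which entered through saline and cKO pools alone. The Flox count was 5 with the 6 Flox libraries alone, without Cd209f and Clec4d. It was 6 without a filter on low values, without Clec4d. The cKO count of 4 moved most: 8 by edgeR, 8 by DESeq2, 7 with 5 added before the logarithm, 7 with the 6 cKO libraries alone, 2 without a filter on low values, 3 with the replicate block, and 2 to 7 when 1 library was left out. It was 7 without the Flox saline pool of mice 1-3 and 2 without the Flox carrageenan pools of mice 1-3 or 8-10, any cKO saline pool, or the cKO carrageenan pools of mice 5-8 or 9-12. The cause was not tested. The mean treatment effect called 9, 7 to 10 when 1 library was left out, and 9 with the block. Apart from Cd209f, Cd209g and Clec4d in cKO the block changed no member's call. The genotype counts of 0 in saline, after carrageenan and for the interaction stayed 0 in every alternative run, the block included for the interaction. After carrageenan edgeR and DESeq2 did not give every member an adjusted p. Averaged over treatments the genotype count of 0 became 1 by edgeR, 1 by DESeq2, 0 to 1 when 1 library was left out, and 4 without the 2 libraries that stand apart (Flox saline 1-3 and cKO carrageenan 9-12), an alternative added after seeing the data. Cd209b, Cd209f and Cd209g lay under the minimum of 5 in every Flox carrageenan pool. The cKO pool left out in that alternative is the lowest of its group for these genes, so the alternative raises their cKO values by construction. It left 7 in Flox, 6 in cKO and 8 for the mean.

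Signs that turned belonged to values that passed no test. With 1 library left out, the cKO to Flox value after carrageenan ran from -0.19 to 0.22 for Cd209a, -0.0750 to 0.22 for Clec4n and -0.0903 to 0.31 for Clec4d. The interaction ran from -0.54 to 0.14 for Clec10a, -0.71 to 0.0557 for Clec4e and -0.49 to 0.0875 for Clec4d. With 5 added, the interaction of Cd209f was -0.0027. Without the 2 libraries that stand apart the interaction was 0.46 for Clec10a and 0.10 for Clec4e, and the averaged genotype value of Clec4d was -0.0084. With 3 reads worth 2.28 to 16.6 normalized counts in the Flox pools, a low level of Cd209b, Cd209f or Cd209g could not be told from 0 there.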
